A study of Mus musculus with 4 samples.

Results

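The genes of mouse chromosome 8 were followed on 4 expression arrays of pluripotent cells, and the array of 1 line, NT-3, was set against the other 3. Of 18032 genes with a probe set of their own that was found in the RefSeq gene table, 932 lie on chromosome 8, each represented by its brightest such probe set on average. Of these 932 genes, 636 were bright, meaning that their mean level was at or above 6.83, the median of all probe set values, and 296 were dim. Most bright chromosome 8 genes stood somewhat higher on NT-3, and a small set stood well above that common difference. A few, led by Sall1 and the metallothioneins Mt1 and Mt2, stood lower. Chromosome and line were chosen by the level of these same genes on NT-3 against the other arrays, so everything that sets NT-3 against the other arrays is a description with no test.

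One array held an induced pluripotent stem cell clone, Adeno-1, made with adenoviral vectors out of tail-tip fibroblasts and called the clone here. The other 3 arrays held NT-ESC lines, embryonic stem cells derived from blastocysts cloned by nuclear transfer and labelled as subclones 1 to 3 (NT-1, NT-2 and NT-3). All 4 cultures grew in serum and LIF medium over irradiated mouse embryonic fibroblasts, which were removed by preplating before total RNA was taken. Each culture gave 1 array, so no line has a replicate of its own, and the clone stands for its group alone.

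A level is a log2 intensity rebuilt from the deposited ratio of each probe set to its array's mean, on the assumption that this mean is 7. A difference is the level on NT-3 minus the mean level of the other 3 arrays, and a difference of 1 would be a doubling of intensity. The levels of separate probe sets depend on their probes, so levels are compared between arrays and not between genes. Pluripotency markers were bright, 10 of 10, with a summed level from 15.57 to 15.65 (log2) that is weighted to the brightest of them. Of the 10, 3 were highest on NT-3 and 3 lowest, against 26.7% and 31.1% of all bright genes. The lowest were Fbxo15 (-0.44), Nanog (-0.17) and Pou5f1 (-0.02), and the highest Utf1 (0.13), Tdgf1 (0.07) and Dppa4 (0.04). Fibroblast and feeder markers were also measured, 9 of 11 bright, with a summed level of 12.55 on the clone, 12.57 on NT-1, 12.77 on NT-2 and 12.51 on NT-3.

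As background, most genes answer an added or lost chromosome with a change in mRNA in the direction of the copy number, while genes under feedback or lineage control can depart from it, and cultured mouse embryonic stem cells are known to gain chromosomes 8 and 11 readily. Chromosome 8 carries pluripotency genes (Zfp42, Sall1 and Klf2), the metallothionein cluster, the type IV collagen pair Col4a1 and Col4a2, and many genes of translation, respiration and DNA replication. Copy number was not measured in these files, and its part in the values below was not tested.

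The median bright chromosome 8 gene was 0.266 higher on NT-3, 1.20-fold, with the middle 50% of genes between 0.108 and 0.406 and extremes of -0.68 and 0.83. NT-3 was the highest of the 4 arrays for 522 of the 636 genes (82.1%), against 26.7% of all 11700 bright genes. It was the lowest for 25 genes (3.93%), against 31.1% of all bright genes. On the other chromosomes the median of 11064 bright genes was -0.02. The choice of line and chromosome rests on these counts, so they support nothing beyond themselves.

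The difference did not come from a single partner array. NT-3 was above the clone for 561 of the 636 genes with a median of 0.272, above NT-1 for 584 with a median of 0.262, and above NT-2 for 568 with a median of 0.262. The median level of the bright chromosome 8 genes was 8.68 on the clone, 8.72 on NT-1, 8.74 on NT-2 and 9.02 on NT-3. The first 3 arrays thus lay close together and NT-3 apart from them, whereas the medians of bright genes elsewhere were 8.52, 8.56, 8.56 and 8.53.

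**Figure D1:**
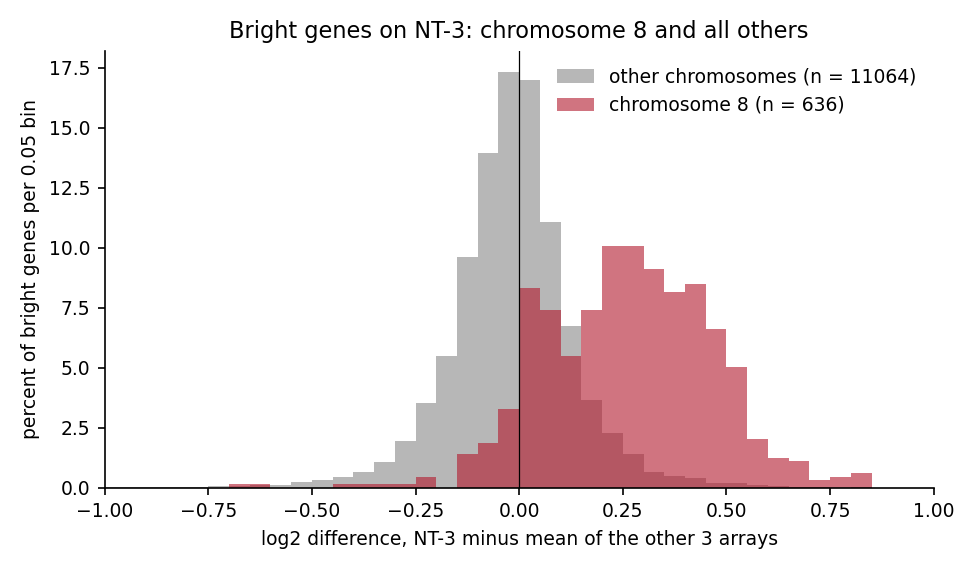
Distribution of the log2 difference of NT-3 from the mean of the other 3 arrays, as the percent of bright genes in each step of the difference, for 636 chromosome 8 genes and 11064 genes of other chromosomes, with the axis drawn from -1 to 1. The chromosome 8 genes centre on a median of 0.266 and spread more widely (scaled median absolute deviation 0.216) than the others (0.116), which centre just below 0.

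Genes were then sorted by how far they kept to the common difference, called the rise below as a name only. A gene was above the rise if NT-3 was its highest array and its difference exceeded 0.50, the median plus 2 scaled median absolute deviations of the genes elsewhere, and with the rise if NT-3 was highest and the difference lay between 0.03 and that limit. Of the 636 bright genes, 69 were above the rise (10.8%, against 1.11% of all bright genes), 448 with it, 5 had a smaller difference although NT-3 was highest, 89 were unraised, with NT-3 between other arrays, and 25 were lower, with NT-3 lowest. By the same limits, of 11064 bright genes elsewhere 61 were above the rise, 2435 with it, 101 had a smaller difference, 4850 were unraised and 3617 lower. The limits cut through a continuous spread, and the lower one lies near 0, so a gene counted with the rise can be almost flat. Tacc1, Nek3 and Plpbp lay just inside the upper limit, and Zc3h18, Hmgb2 and Galnt2 just outside it, all at differences that round to between 0.49 and 0.50. At the lower limit Cdh16, Il12rb1 and Car7 (0.04 to 0.05) stood just inside and Clec4g, Zfp703, Fa2h, A330008L17Rik and Rab3a (0.02 to 0.03) just outside.

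The difference was larger for genes with a higher mean level. The median was 0.0933 for 192 bright genes below a level of 8, 0.299 for 320 genes from 8 to 10, and 0.367, 1.29-fold, for 124 genes at 10 and over. Of those 124, NT-3 was highest for 118 (95.2%), and the exceptions were Mt1 and Mt2, which were lowest there, and Calr, Zfp42, Elavl1 and Klf2, which were unraised. Most of the lower genes, 20 of 25, had mean levels under 8. Across bright chromosome 8 genes the difference and the mean level correlated with a Pearson coefficient of 0.383 and a Spearman coefficient of 0.459 (n = 636 genes that share the same 4 arrays), and across bright genes elsewhere with a Pearson coefficient of -0.01. The 296 dim genes had a median of 0.0294 and NT-3 was highest for 94 of them and lowest for 51, where the shares over all 18032 genes, dim and bright, were 25.7% and 28.8%. Signal near background shrinks a difference on any array, and its part in the smaller values of weaker probe sets was not tested.

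**Figure D2:**
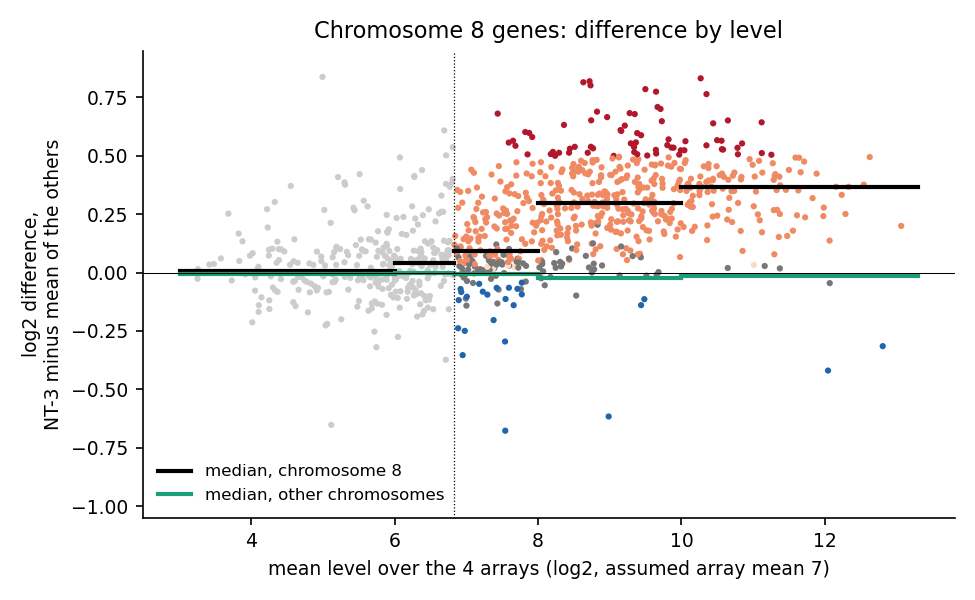
Log2 difference of NT-3 from the mean of the other 3 arrays against the mean level over the 4 arrays for the 932 chromosome 8 genes, dim ones in light grey left of the dotted bright limit and bright ones coloured by class (dark red above the rise, orange with it, pale orange a small rise, dark grey unraised, blue lower), with bars for the medians by level. The chromosome 8 medians climb from 0.00903 at levels under 6 to a median of 0.367 at levels of 10 and over, where only Mt1 and Mt2 were lowest on NT-3.

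Dlc1, a tumour suppressor named for its deletion in liver cancer, headed the genes above the rise. Its level was 9.95 on the clone, 10.11 on NT-1, 10.12 on NT-2 and 10.89 on NT-3, a difference of 0.83. The other arrays spanned a range far smaller than the gap up to NT-3. Adgre5, the adhesion receptor CD97, read 8.28, 8.41 and 8.59 on the clone, NT-1 and NT-2 and 9.24 on NT-3 (0.82). Ckap2, a protein of the mitotic spindle, read 10.17, 10.11 and 10.20 against 10.92 on NT-3 (0.76). Fgfr1, a receptor for fibroblast growth factors and so for a signal that prompts embryonic stem cells to leave self-renewal, read 8.68, 8.81 and 8.90 against 9.46 (0.67).

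Several of these genes act in membranes and their traffic, a description whose share among other chromosome 8 genes was not counted. Vps36 is a subunit of the ESCRT-II sorting complex and was at 9.58, 9.42 and 9.48 on the clone, NT-1 and NT-2 and at 10.20 on NT-3 (0.71). Tmem184c, a multipass membrane protein, was at 9.26, 9.33 and 9.31 against 10.09 (0.79), and Mtmr7, a myotubularin that acts on inositol lipids, at 9.38, 9.49 and 9.48 against 10.23 (0.77). Sntb2, a syntrophin of the dystrophin complex, and Exoc3l, related to an exocyst subunit, each differed by 0.68. The remaining genes among the 15 with the largest differences above the rise were Hsdl1 (0.69) and Cbr4 (0.68), members of the short-chain dehydrogenase family, Gse1 (0.65), a partner of corepressor complexes, and Ankrd37, Col4a1 and Dnajb1, which are taken up next. In each of the 15 the NT-3 level exceeded every other array by more than those arrays differed among themselves.

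Dnajb1, the heat-inducible Hsp40 that hands clients to Hsp70, had a level of 9.57 on the clone, 9.53 on NT-1, 9.50 on NT-2 and 10.23 on NT-3 (0.70). Its second probe set gave 0.80. Of 11 bright heat shock genes off chromosome 8, 4 were highest on NT-3 and 3 lowest, against 23.5% and 32.7% of all bright genes there. Their median was 0.03, from -0.31 for Hspa8 to 0.61 for Hspa1b.

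Col4a1, a chain of basement membrane collagen, read 8.41 on the clone, 8.62 on NT-1, 8.57 on NT-2 and 9.33 on NT-3 (0.80). A second probe set of the gene gave a smaller difference, 0.42, from 8.48, 8.43, 8.48 and 8.88. Col4a2, which lies beside it and encodes the partner chain, read 7.99, 7.90, 8.05 and 8.20 (0.22), so that the pair did not share the size of the difference. Of 8 other bright basement membrane genes, none of which lies on chromosome 8, 6 were lowest on NT-3, against 32.7% of bright genes on other chromosomes. The 8 differences ran from -0.81 for Lama1 to 0.08 for Nid2, with a median of -0.15. Lama1 is also a marker of primitive endoderm, whose list had 3 of 9 members bright and summed levels of 10.91, 11.12, 11.01 and 10.80. Its other bright members went both ways, with Lamb1 lowest on NT-3 (-0.16) and Dab2 highest (0.30), and Gata4, Gata6, Sox17, Sox7, Foxa2 and Pdgfra were dim.

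Ankrd37 and Egln1 are textbook targets of the hypoxia-inducible factors, and Egln1 encodes the oxygen-sensing prolyl hydroxylase that marks those factors for destruction. Ankrd37 was at 8.39 on the clone, 8.63 on NT-1, 8.52 on NT-2 and 9.33 on NT-3 (0.82). Egln1 read 9.02, 9.33, 9.35 and 9.83 in the same order (0.60). Both were above the rise, and both hold the core of the hypoxia response element, ACGTG read on either strand, in the 250 bases before their start. Of 636 bright chromosome 8 genes, 447 had an entry in the promoter table, and 16.6% of its 32851 promoters hold the core, so that a match in this window is common and is no evidence of binding. The sequences below are from RefSeq on build GRCm38.p6, written 5′ to 3′ on the strand of the gene with the core in capitals. The first lies at chr8:45999851-46000100 on the minus strand with 2 matches, and the second at chr8:124949255-124949504 on the minus strand with 1 match.
Ankrd37: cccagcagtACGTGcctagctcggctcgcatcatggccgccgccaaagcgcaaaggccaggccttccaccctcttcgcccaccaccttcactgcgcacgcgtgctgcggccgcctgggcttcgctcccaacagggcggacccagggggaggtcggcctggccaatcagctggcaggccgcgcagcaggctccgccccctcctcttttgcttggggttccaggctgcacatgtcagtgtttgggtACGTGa
Egln1: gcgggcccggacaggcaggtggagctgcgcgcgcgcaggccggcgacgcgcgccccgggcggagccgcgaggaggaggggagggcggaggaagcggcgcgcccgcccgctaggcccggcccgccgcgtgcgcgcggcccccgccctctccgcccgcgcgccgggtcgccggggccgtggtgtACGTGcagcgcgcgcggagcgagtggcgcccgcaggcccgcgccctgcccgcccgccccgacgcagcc

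**Figure D3:**
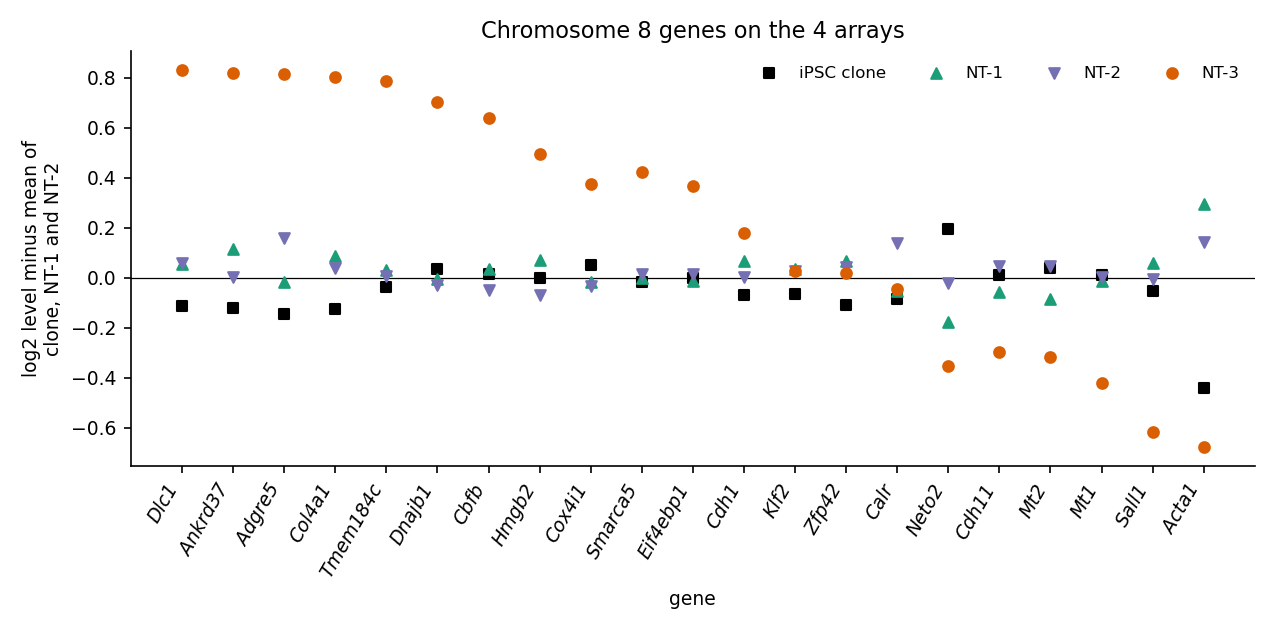
Log2 level minus the mean of the clone, NT-1 and NT-2 (vertical axis) for 21 chromosome 8 genes (horizontal axis), with 1 symbol per array. NT-3 stands far above the other arrays from Dlc1 (0.83) to Cbfb (0.64), above them from Hmgb2 (0.49) to Cdh1 (0.18), among them for Klf2, Zfp42 and Calr, and below them from Neto2 to Sall1 (-0.62), while for Acta1 the clone lies close to NT-3.

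The function lists are read beside all bright chromosome 8 genes, of which 82.1% were highest on NT-3 with a median of 0.266, and 95.2% at levels of 10 and over. All 12 bright genes of translation were highest on NT-3 with a median of 0.36, as were 13 of 13 of mitochondria (0.38), 15 of 15 of the proteasome and ubiquitin system (0.34) and 14 of 14 of DNA replication, repair and cell cycle (0.29). Of 27 other transcription factors and chromatin proteins 26 were highest (0.34), of 14 RNA processing genes 13 (0.33) and of 14 chaperones and secretory genes 13 (0.34). The exceptions in the last 3 lists were Junb, an AP-1 subunit induced by growth signals (0.02), the splicing regulator Esrp2 (-0.20) and Calr, a calcium-binding chaperone of the endoplasmic reticulum (-0.04).

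Eif4ebp1, the translation repressor controlled by mTOR, had levels of 12.24, 12.23 and 12.26 on the clone, NT-1 and NT-2 and of 12.61 on NT-3 (0.37). Cox4i1, a subunit of cytochrome c oxidase, was at 12.50, 12.44, 12.42 and 12.83 (0.38), and Smarca5, the ATPase of ISWI remodellers, at 11.76, 11.78, 11.80 and 12.20 (0.42). For these 3 genes the other arrays differed by less than 0.1 while NT-3 was about 0.4 above them. Hmgb2, a chromatin protein of dividing cells, read 12.50, 12.57, 12.44 and 13.00 (0.49), just under the upper limit. Among the 12 genes with the highest mean levels in this class, the smallest differences belonged to Cdt1, a licensing factor of replication origins (0.14), and Tomm20, the receptor of the outer mitochondrial membrane (0.20). The others were Aars (0.37), Nudt21 (0.33), Ddx39a (0.32), Dnaja2 (0.28), Mcm5 (0.25) and Aprt (0.24), which act in alanine tRNA charging, mRNA 3′ end choice, RNA unwinding, protein folding, DNA unwinding at the fork and adenine salvage.

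Lists of regulated or tissue-specific genes are set against the same 82.1% and median of 0.266. Of 17 bright signalling genes 13 were highest on NT-3 (median 0.26), and Ikbkb (0.03), Jak3, Irs2 and Dand5 were unraised. For Ikbkb this rests on the probe set used, since its 2 other bright probe sets were highest on NT-3 (0.40 and 0.27). Of 14 adhesion, cytoskeleton and matrix genes 11 were highest (0.25), of 8 redox and metal genes 5 (0.11), and of 8 lipid and amino acid genes 7 (0.20), with Gpt2, an alanine transaminase, lowest (-0.14). Of 20 pluripotency and developmental transcription factors 9 were dim, and of the 11 bright ones 4 were highest and 2 lowest, with a median of 0.0248. Genes of adult organs were mostly dim, 10 of 17, and of the 7 bright ones 5 were highest (0.0546). All 3 bright germ line genes were highest (0.41). The lists also differ in signal, with a median level over bright members from 7.70 for adult organ genes to 11.01 for mitochondria, and its part in the medians was not tested.

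Zfp42, the zinc finger protein Rex1 and a standard marker of naive pluripotency, read 11.26 on the clone, 11.43 on NT-1, 11.41 on NT-2 and 11.39 on NT-3 (0.02). Klf2, a Kruppel-like factor that helps maintain the naive state, read 11.09, 11.19, 11.18 and 11.18 (0.03). Each of these genes has only 1 probe set of its own, so neither could be checked on another. NT-3 fell among the other arrays for both. Their neighbours did not share this. The 4 bright genes before Zfp42 in gene order had differences of 0.53, 0.24, 0.56 and 0.41 (Pcm1, Asah1, Frg1 and Triml1), and 3 of the 4 after it had 0.25, 0.54 and 0.82 (Fat1, Ufsp2 and Ankrd37), with Sorbs2 at -0.00. All 8 bright neighbours of Klf2 had positive differences, from 0.13 for 1700030K09Rik to 0.40 for Ap1m1. Smad1, the effector of BMP signals, was the developmental regulator above the rise, at 8.58, 8.59, 8.73 and 9.17 (0.53).

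Calr read 11.99, 12.03, 12.22 and 12.04 on the clone, NT-1, NT-2 and NT-3, a difference of -0.04 that is smaller than the spread of the other arrays. Elavl1, an RNA-binding protein that stabilises mRNAs and that was named after its value was seen, had 10.67, 10.61, 10.65 and 10.66 (0.02). Its 5 other probe sets ranged from 0.02 to 0.71, so its place among the unraised genes rests on the probe set used.

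Sall1, a zinc finger repressor that recruits the NuRD complex and is expressed with Nanog and Sall4 in embryonic stem cells, was the clearest exception among genes with a level above 8. It was at 9.08 on the clone, 9.20 on NT-1, 9.13 on NT-2 and 8.52 on NT-3, a difference of -0.62. Its second probe set gave 8.99, 8.87, 8.81 and 8.47 (-0.42), so NT-3 was lowest by both. On other chromosomes, NT-3 was also the lowest array for Nanog (-0.17) and Sall4 (-0.19), as it was for 32.7% of bright genes there. Close by, Brd7, a bromodomain subunit of a SWI/SNF complex, was above the rise (0.63), Chd9, Aktip and Fto had 0.22, 0.30 and 0.46, and Nkd1, Snx20 and Gm19935 lay between -0.05 and 0.04. By the root mean square distance of centred levels over the 4 arrays, the bright chromosome 8 genes most like Sall1 were Mt1 (0.0985), Cdh11 (0.157), Mt2 (0.159), Irx6 (0.170) and Esrp2 (0.181). In bulk samples such as these, fewer cells of a type and less RNA per cell cannot be told apart.

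Mt1 and Mt2 encode metallothioneins, small proteins that bind zinc and copper, and both genes are switched on by metals through MTF1. Mt1 was at 12.16 on the clone, 12.14 on NT-1, 12.15 on NT-2 and 11.73 on NT-3 (-0.42), and Mt2 at 12.93, 12.80, 12.94 and 12.57 (-0.31). NT-3 was lowest for both by more than the other arrays differed among themselves. A second Mt1 probe set, at a lower signal, read 7.56, 7.74, 7.56 and 7.44. The metallothionein gene Mt3, beside the pair, was not lower: it read 7.389, 7.237, 7.338 and 7.394, highest on NT-3 by little (0.07). Also around the pair, Ogfod1 stood at 0.24, Nup93 at 0.35, Herpud1 at 0.24 and Bbs2 at 0.04. Slc12a3, between Nup93 and Herpud1, was lowest on NT-3 (-0.08). The 250 bases before each start are from RefSeq on build GRCm38.p6, written 5′ to 3′ on the plus strand. Capitals mark matches to TGCNCNC on either strand, a looser pattern than the metal response element core. A match to it need not be such an element and is no evidence of binding. Mt1 (chr8:94178839-94179088) holds 1 match and Mt2 (chr8:94172368-94172617) holds 5, where 44.4% of all 32851 promoters hold at least 1 and 0.344% at least 5.
Mt1: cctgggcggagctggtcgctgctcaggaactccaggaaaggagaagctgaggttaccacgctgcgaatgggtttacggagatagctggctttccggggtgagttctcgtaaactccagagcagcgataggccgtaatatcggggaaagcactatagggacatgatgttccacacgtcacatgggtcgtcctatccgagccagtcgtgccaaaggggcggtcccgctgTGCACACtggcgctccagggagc
Mt2: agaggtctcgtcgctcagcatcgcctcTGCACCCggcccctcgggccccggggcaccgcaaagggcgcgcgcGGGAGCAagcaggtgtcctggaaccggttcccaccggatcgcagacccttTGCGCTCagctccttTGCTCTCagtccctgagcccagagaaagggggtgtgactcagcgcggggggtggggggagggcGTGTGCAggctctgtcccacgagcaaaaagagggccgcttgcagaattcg

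Lower genes of other kinds follow. Acta1, skeletal muscle actin, read 7.27, 8.01, 7.85 and 7.03 on the clone, NT-1, NT-2 and NT-3 (-0.68), but the other arrays themselves spanned a wide range and the clone lay near NT-3. Its neighbours Ccsap and Nup133 stood at 0.21 and 0.43. Cdh11, a cadherin of mesenchymal cells, read 7.62, 7.55, 7.66 and 7.32 (-0.30), and Nrp1, a receptor for semaphorins and VEGF, 7.08, 6.95, 7.09 and 6.79 (-0.25). Nrp1 lies between Pard3 (0.42) and Itgb1 (0.20). These are genes that fibroblasts also use. Of 9 bright fibroblast and feeder markers 1 was lowest on NT-3, Acta2 (-0.49), and none was highest, against 31.1% and 26.7% of all bright genes. The dim markers of that list, Lum (0.20) and Pdgfrb (0.22), were both highest. The 3 bright trophectoderm markers, of 6 listed, went different ways: Krt18 was lowest on NT-3 (-0.91), Krt8 stood at 8.41 there and 8.39 on the clone, under both other lines (-0.72), and Eomes was highest (0.56). Their list summed to 10.03, 10.87, 10.64 and 10.10, with Cdx2, Elf5 and Gata3 dim. The part of other cell types in the lower genes was not tested.

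Neto2, an accessory subunit of kainate receptors, was at 7.23, 6.86, 7.01 and 6.68 (-0.35), and Irx6, an Iroquois homeobox gene, was at 6.71 on NT-3 and at no less than 6.88 on the others (-0.24). Their levels were close to the limit of the bright class. Urb2, a ribosome biogenesis factor with a level above 9, was only slightly lower (-0.11). The rest of the 15 lower genes farthest under their lowest array included Gm8096, Crtc1, C230057M02Rik, Evi5l and Zmat4, at -0.08 to -0.14.

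Many chromosome 8 genes have further probe sets on the same arrays. Of 422 further bright probe sets of 270 chromosome 8 genes, 349 were highest on NT-3 and 17 lowest, with a median of 0.302. For genes above the rise, 58 of 61 further probe sets were highest with a median of 0.55. For lower genes, 5 of 8 were lowest with a median of -0.14. For unraised genes, 16 of 37 were highest and 6 lowest with a median of 0.06, so that class often depends on the probe set used. The further probe sets share RNA and arrays with the representatives and are no independent sample.

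The rise ran along the whole chromosome. Taken in 12 consecutive parts of 53 bright genes in gene order, the median difference lay between 0.172 and 0.357 and was above 0 in every part. It was largest from Cdc16 to Star and smallest from Tent4b to Cklf, where 33 of 53 genes were highest, 13 unraised and 7 lower. The stretch from Gpt2 to Cdh11, chosen after its values were seen, holds Sall1, Irx6, Mt1, Mt2 and Cdh11. It has 63 bright genes, 9.91% of the bright genes, and 9 of the 25 lower genes. Even so 40 of its 63 genes were highest on NT-3, and 4 were above the rise (Brd7, Arl2bp, Cfap20 and Csnk2a2).

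**Figure D4:**
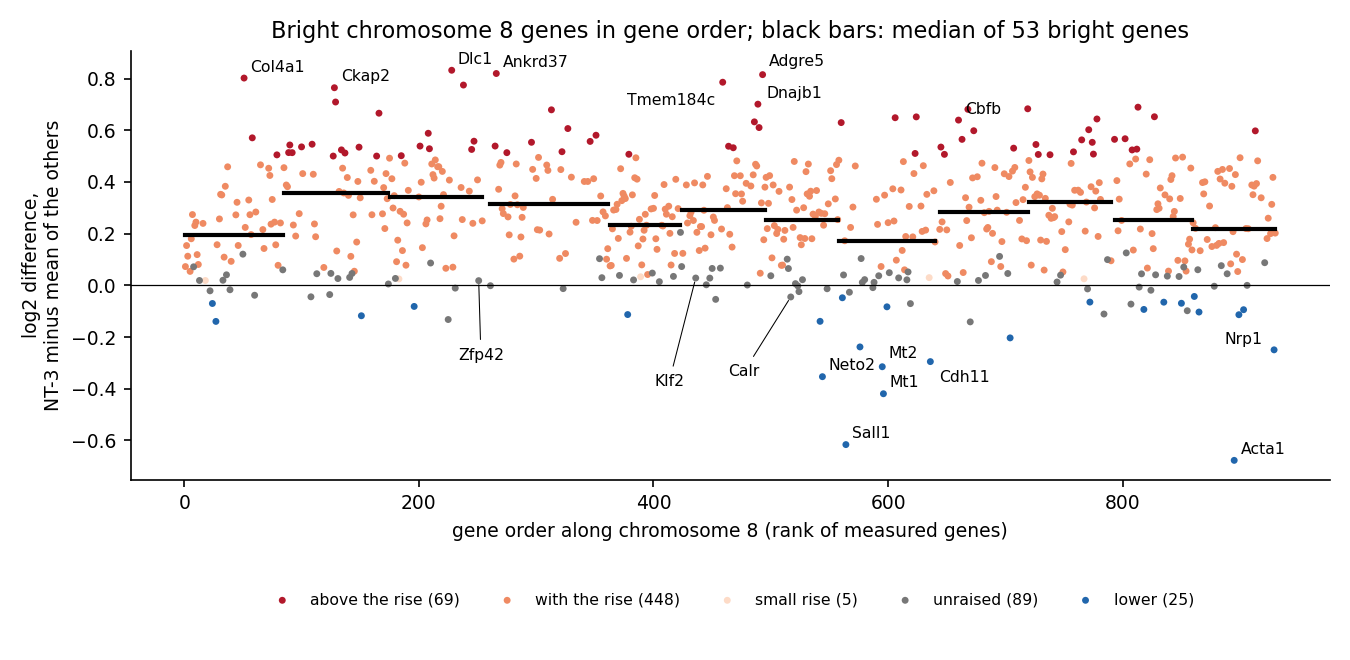
Log2 difference of NT-3 from the mean of the other arrays for each of the 636 bright chromosome 8 genes in gene order, coloured by class, with black bars for the median of 53 bright genes. All 12 bars lie above 0, from 0.172 to 0.357, while Sall1 (-0.62), Mt1 (-0.42), Mt2 (-0.31) and Cdh11 (-0.30) lie together under the lowest bar.

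Lists of protein complexes, gene families and pathways with genes on and off chromosome 8 set the members beside their partners on the same arrays. Partners are the other genes of the same list. In the lists used here 28 bright members lie on chromosome 8, and 27 of them were highest on NT-3 (96.4%) with a median of 0.37, Sall1 being the exception. Among all 636 bright chromosome 8 genes the share was 82.1%, and 95.2% at levels of 10 and over. Of 117 bright partners on other chromosomes, 25 were highest (21.4%) and 32 lowest, with a median of -0.01. Of all 11064 bright genes elsewhere, 23.5% were highest and 32.7% lowest with a median of -0.02. These counts therefore repeat the contrast between chromosome 8 and the rest. The chromosome 8 median was above that of the partners in 18 of 19 complexes or families, and above every partner in 16. In 2 of these the margin was slight, with E2F and DP at 0.403 against the same rounded value for Rb1 and sterol synthesis at 0.271 against 0.267 for Pmvk. The 3 without that separation were the Sall family, the SF3B splicing complex, where Sf3b1 reached 0.29, and the heat shock group, where Hspa1b reached 0.61.

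Cbfb, the shared beta subunit of Runx transcription factors, was at 10.30, 10.32, 10.23 and 10.92 on the clone, NT-1, NT-2 and NT-3 (0.64), while its partners Runx1 and Runx3 differed by -0.01 and 0.04. Psmd7, a lid subunit of the proteasome, had 0.41 against -0.09 to 0.20 for 16 other subunits. Cdc16 and Anapc10 of the anaphase-promoting complex had 0.46 and 0.48 against -0.25 to 0.09. These subunits stood above their partners on NT-3, in the direction in which most bright chromosome 8 genes stood above genes elsewhere.

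Gins4, Gins3 and Gins2, which form the helicase partner GINS with Gins1, had differences of 0.40, 0.31 and 0.29, and Gins1, off the chromosome, -0.22. Lsm1, Lsm4 and Lsm6, ring proteins of RNA decay and splicing, had 0.34, 0.41 and 0.54 against -0.04 to 0.08. Cox4i1 exceeded the other bright subunits of cytochrome c oxidase, which lay between -0.27 and 0.16. Whether the proteins followed is not measured in these arrays.

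**Figure D5:**
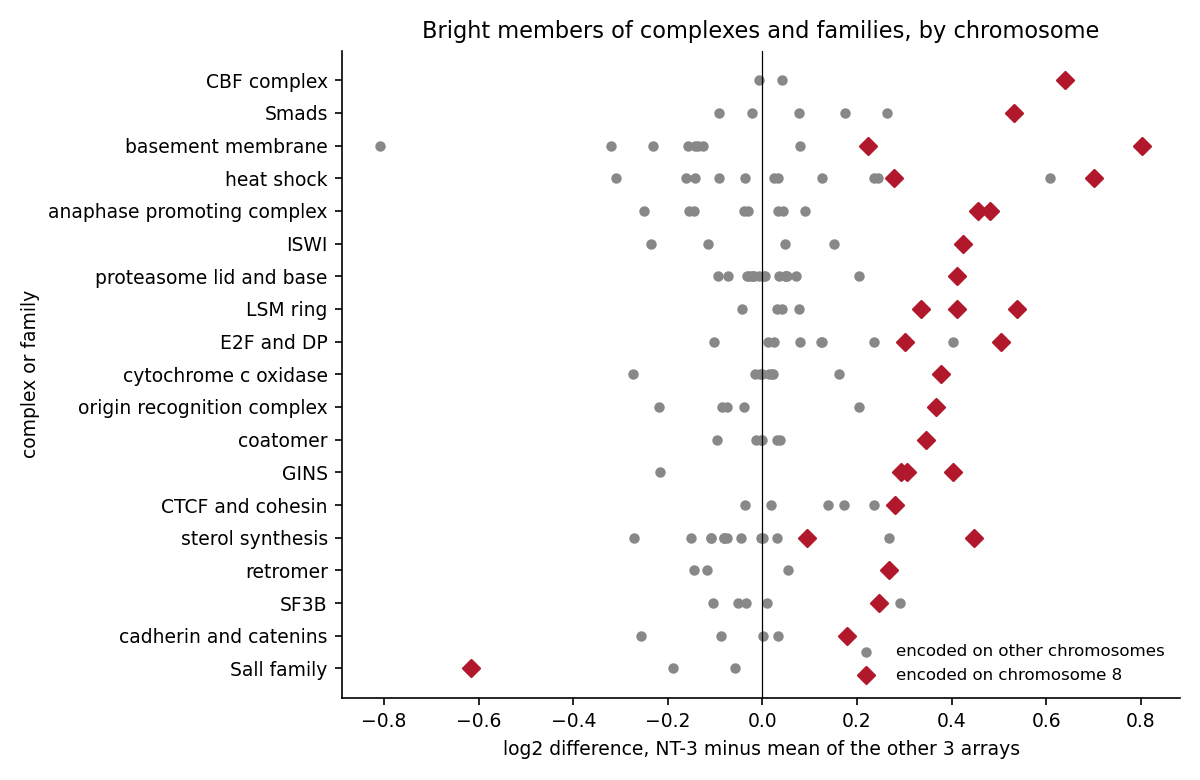
Log2 difference of NT-3 from the mean of the other arrays for bright members of the listed complexes and families, with chromosome 8 members and partners on other chromosomes in separate colours, 1 point per gene. In 16 of 19 complexes or families every partner lies to the left of the chromosome 8 median, and the Sall family runs the other way with Sall1 at -0.62.

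The contrast between the NT-ESC lines NT-1 and NT-2 and the clone leaves NT-3 out, so it can be tested without the values that chose the line. By limma with Benjamini-Hochberg adjustment over all 18032 genes, 0 of 932 chromosome 8 genes passed an adjusted p of 0.05, as did 0% of all genes in either direction, and the smallest adjusted p on the chromosome was 0.606. At an unadjusted p under 0.05, 45 chromosome 8 genes were higher in the lines (4.83%, against 5.15% of all genes) and 15 lower (1.61%, against 2.74%). The fit has 1 residual degree of freedom, since the clone has a single array and is assumed to vary like the lines. It could therefore call only large differences, and the count of 0 does not show that the lines and the clone are alike. Its p-values rest on the gap between NT-1 and NT-2, pooled with the spread over all genes (2.09 prior degrees of freedom). They do not speak for other clones or lines.

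By order alone, both lines were above the clone for 245 of the 636 bright genes (38.5%, against 43.2% of all bright genes) and both below it for 198 (31.1%, against 28.6%). The median difference was 0.00348, beside 0.0217 for bright genes elsewhere. Genes above the rise on NT-3 had a median of 0.058 here and lower genes one of -0.02. The chromosome 8 gene with the smallest p was the dim Unc13a, a priming factor of synaptic vesicles. It read 5.93 on the clone and 6.57 on each line, a difference of 0.64 (n = 2 lines and 1 clone).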

How the data were processed

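RNA of 4 cultures was measured on 1 Affymetrix mouse expression array each. The authors deposited 1 log2 value per probe set, with 3 decimals. On each array, 2 to the power of these values averages 1, so each value was read as the log2 ratio of a probe set's log intensity to the array's mean log intensity. The software and background correction behind it are not given in the sources used here. Levels were computed as 7 times 2 to the power of the value, 7 being an assumed mean log2 intensity: a mean of 6 makes every difference 14.3% smaller, and 7.86, which puts the brightest probe set at the 16-bit limit, makes it 12.3% greater. Arrays give no read depth, and their number limits the precision.

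Of 45101 probe sets, 34945 name 1 gene and 34741 of these were found in the RefSeq table (GRCm38.p6, used for names, chromosomes and gene order), giving 18032 genes. The members, lists and contrast were chosen with earlier results of these data known. Named are the 15 genes above the rise with the largest difference, 15 lower genes, the 12 brightest with the rise, list members, genes at the class limits, those most like Sall1, and neighbours chosen by position. NT-1 and NT-2 were compared with the clone in limma 3.58.1 (R 4.3.3, lmFit and eBayes, two-sided), which was tested on simulated data. Alternatives were the probe set per gene, the level scale, the normalization, the filter on dim genes and the arrays compared. A check of promoter base composition was void, as only 70.3% of bright genes had an entry.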

Additional observations from a re-analysis of the deposited data

How the results depend on the processing

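The median NT-3 difference of bright chromosome 8 genes, 0.266, was 0.228 with an assumed mean of 6, 0.299 with the brightest probe set at 16, 0.0427 on the deposited values as given, 0.284 with the level-binned offset of genes elsewhere removed, 0.180 with no filter and 0.325 at a level of at least 8. Leaving out each other array gave 0.258 to 0.275. The count of genes lowest on NT-3, 25, was 76 with no filter, 5 at a level of at least 8 and 32 to 38 with 1 other array left out, the highest of these without NT-1. The count above the rise, 69, was 170 with no filter and 28 at a level of at least 8, since both limits move with the genes kept, and 57 to 71 with 1 other array left out. The median of NT-1 and NT-2 against the clone, 0.00348, was -0.0199 after quantile normalization, -0.0124 with the level-binned offset removed, 0.0193 at a level of at least 8, 0 to 0.0213 with 1 line left out and 0.0910 with all 3 lines. Its count of called genes was 0 in every fit, with smallest adjusted p-values from 0.409 to 0.855 in limma, and without NT-1 or NT-2 no degrees of freedom are left for a test.

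Of 215 genes named or listed, 2 reversed with the mean of a gene's probe sets, A330008L17Rik (-0.00154) and Slc12a3 (0.0757), and the cause was not tested. In all, 382 of 2365 gene and setting pairs moved by over the SD of the other arrays. No paired analysis was possible because the clone and the lines share fewer than 2 replicate numbers. Signal over background limits the weaker probe sets, and 1 array per line leaves line and array effects that cannot be told apart.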
